A study of Homo sapiens with 9 samples.

Results

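Keratins are the intermediate filament proteins of epithelial cells, and they were followed here through the response of T47D breast cancer cells to a progestin, with and without induction of a hairpin against the transcription factor ELF5. The members were the genes whose array probe sets carry a single symbol made of KRT, a number and at most a letter, without keratin-associated proteins and pseudogenes. Of 18417 genes named by a single symbol, 48 were such keratins, on 51 probe sets. For KRT18, KRT39 and KRT40, which had more than 1 probe set, the rule was to use the one with the highest mean over all arrays. The probe sets of KRT39 had the same values in every array, as did those of KRT40, so there the choice made no difference.

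T47D is an established human breast cancer line of luminal type that carries the progesterone receptor. All 9 Affymetrix arrays came from T47D cells carrying pHUSH-Elf5-shRNA, a retroviral vector from which doxycycline induces the hairpin, and they form 3 groups of 3. The progestin plus doxycycline cells had 10 nM ORG2058, a synthetic progestin, with 0.1 µg/ml doxycycline for 4 days. The progestin cells had 10 nM ORG2058 alone for 4 days, and the vehicle cells had ethanol, for a time that their labels do not give. Each sample was pooled from several wells. Arrays of doxycycline without progestin, or of doxycycline with another hairpin, were not analysed here, so an effect of the drug and an effect of the hairpin cannot be told apart. ELF5 itself averaged 10.42 ± 0.061 with progestin plus doxycycline, 11.28 ± 0.046 with progestin and 10.17 ± 0.11 with vehicle (log2, SD, n = 3 arrays each). Between 14 and 97 tested probe sets per array had log2 values below 0, with the highest number in progestin replicate 3. No keratin value lay below 0.

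A keratin filament is built from pairs of an acidic type I and a basic type II chain, and the chains expressed mark the kind of epithelium. KRT8 and KRT18, joined by KRT19 and KRT7, make up the simple keratins of glandular and luminal mammary cells. KRT5 and KRT14 mark the basal and myoepithelial layer, KRT6, KRT16 and KRT17 appear in activated or wounded stratified epithelium, KRT4 and KRT13 line wet mucosae, and a further set builds hair. Appearance of KRT5 in some luminal breast cancer cells after progestin is known from earlier work on such lines.

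With progestin, 9 of the 48 keratins were higher than with vehicle and 0 were lower. The highest changes were those of KRT80, KRT7 and KRT4, each past 2-fold. The abundant pair KRT8 and KRT18 had folds of 1.10 and 1.14 and did not pass the test. Calls were made with limma over all 21214 annotated probe sets at an adjusted p of 0.05. Of all these probe sets 29.0% were called in this comparison, 13.4% were called higher, and 5.33% were called with a change of at least 2-fold. The shares of keratins were 9 of 48 called and 3 of 48 called past 2-fold.

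Of the 4 simple keratins that define luminal cells, KRT7 changed most. KRT7, the type II keratin of many ducts and glands, stood at 10.75, 10.72 and 10.78 in the progestin arrays, against 9.23, 9.26 and 9.01 in the vehicle arrays (log2). The groups lay far apart relative to their spread, and the difference was 2.99-fold (log2 change 1.58, SE 0.08, adjusted p = 4.37e-06). KRT19, the smallest type I keratin, which lacks the tail of the other chains, stood at 12.91, 12.85 and 12.87 in progestin arrays, against 12.42, 12.42 and 12.41 in vehicle arrays. It rose 1.37-fold (log2 change 0.46, SE 0.06, adjusted p = 0.000838), a small change with very little spread in either group.

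KRT8, the type II chain of the simple pair, stood at 13.13, 13.14 and 13.06 with progestin, against 13.00, 12.95 and 12.94 with vehicle. Every progestin array was above every vehicle array, but the log2 change of 0.14 (95% interval -0.01 to 0.29) had an adjusted p of 0.145. For its type I partner KRT18 the progestin arrays were at 13.20, 13.18 and 13.12 and the vehicle arrays at 12.98, 12.99 and 12.98. That log2 change was 0.19 (95% interval 0.04 to 0.33, adjusted p = 0.0621), and the second KRT18 probe set had the same change of 0.19 (adjusted p = 0.0643). The intervals exclude a change of 2-fold for both genes. KRT8 passed the threshold with quantile normalization (adjusted p = 0.0158) and both passed with a variance trend and robust estimation (adjusted p = 0.00456 for KRT8 and 0.00032 for KRT18), and KRT18 passed with array weights (adjusted p = 0.00725). RefSeq lists 52 pseudogenes of KRT8, 68 of KRT18 and 5 of KRT19, and RNA or probes shared with such copies could not be separated from the genes. The highest value of any tested probe set was 14.17, so KRT8 and KRT18 were measured near the top of the scale.

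Among the other simple keratins, KRT23, a type I chain of glandular epithelia, stood at 8.23, 8.29 and 8.19 in progestin arrays, against 7.77, 7.74 and 7.48 in vehicle arrays. It rose 1.49-fold (log2 change 0.57, SE 0.10, adjusted p = 0.00394). KRT20, the type I keratin of the gut lining, had values between 4.82 and 5.39 with progestin and between 4.86 and 5.18 with vehicle, and the groups overlapped throughout (log2 change -0.0026, adjusted p = 0.993). KRT80, a type II keratin of differentiating epithelial cells, had the highest change of all keratins. Its values were 9.29, 9.29 and 9.40 with progestin, against 7.67, 7.79 and 7.40 with vehicle, a difference of 3.26-fold (log2 change 1.70, SE 0.10, adjusted p = 9.23e-06).

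**Figure D1:**
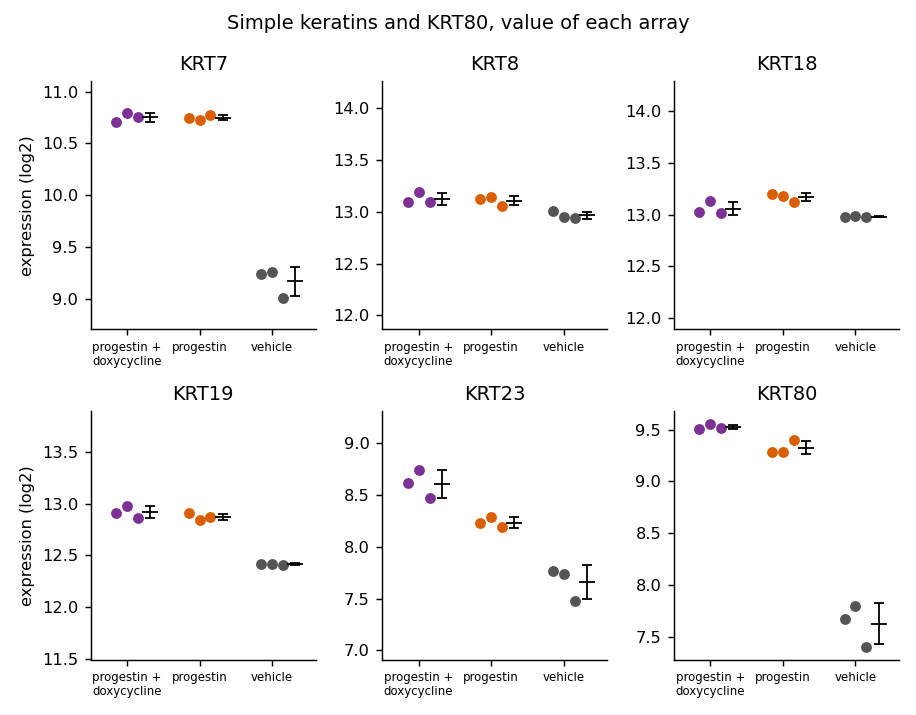
Expression of the simple keratins KRT7, KRT8, KRT18, KRT19 and KRT23 and of KRT80 (log2, vertical axis, each panel with its own range) in the 3 arrays of each group, with the mean and SD as black bars. KRT7 and KRT80 lie far above vehicle in both progestin-treated groups, while KRT8 and KRT18 stay between 12.94 and 13.20 on all arrays.

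The basal keratins were split. KRT5, the type II chain of basal cells, stood at 6.84, 6.80 and 6.98 in progestin arrays, against 6.56, 5.82 and 6.40 in vehicle arrays. It rose 1.53-fold (log2 change 0.61, SE 0.18, adjusted p = 0.0363), with vehicle replicate 2 well below the other vehicle arrays. KRT14, its usual type I partner, was not called. KRT14 values were 7.73, 8.20 and 7.64 with progestin, against 7.89, 7.88 and 8.07 with vehicle (log2 change -0.09, 95% interval -0.44 to 0.26, adjusted p = 0.71). The difference between the changes of these partners was not tested.

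KRT15, a type I chain of basal cells and of hair follicle stem cells, stood at 7.56, 6.85 and 7.42 with progestin, against 6.84, 6.69 and 6.63 with vehicle. Its call was the weakest of the 9 (log2 change 0.56, SE 0.18, adjusted p = 0.0451), since progestin replicate 2 reached only just above the vehicle arrays. KRT16, the type I partner of KRT6 in activated epithelium, had values of 5.96, 6.11 and 6.33 with progestin, against 5.77, 5.64 and 5.90 with vehicle, and did not pass (log2 change 0.36, adjusted p = 0.0783). KRT16 was called when the dimmest 25% of probe sets stayed out (adjusted p = 0.0407). The KRT5 call was lost without any 1 of 5 arrays, namely any progestin array and progestin plus doxycycline replicates 1 and 3, and the KRT15 call without any 1 of 8, all but progestin replicate 2. Without vehicle replicate 2 the KRT5 change was 0.39. In these bulk samples, more cells expressing a keratin and more RNA per cell cannot be told apart.

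The suprabasal and mucosal keratins numbered 14, of which KRT80 and KRT4 rose and 12 were not called. KRT4, the type II chain of wet stratified epithelia, stood at 7.87, 7.85 and 7.80 with progestin, against 6.48, 6.33 and 6.61 with vehicle. That is a difference of 2.57-fold (log2 change 1.36, SE 0.09, adjusted p = 1.8e-05). KRT13, the type I chain that pairs with KRT4 in the esophagus, had 8.24, 8.20 and 8.17 with progestin, against 8.13, 8.08 and 8.34 with vehicle, and these ranges overlapped (log2 change 0.02, 95% interval -0.18 to 0.23, adjusted p = 0.881). The epidermal pair KRT1 and KRT10 had log2 changes of -0.32 (adjusted p = 0.255) and 0.23 (adjusted p = 0.112), and the corneal pair KRT3 and KRT12 had -0.04 and 0.13 (adjusted p = 0.818 and 0.763). KRT77, a type II chain of the epidermis, had a log2 change of 0.30 (adjusted p = 0.165). Of the 12 uncalled members 9 had a positive change, the lowest being that of KRT1.

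Hair keratins went up in 2 of 14 cases and were not called in 12. KRT35, a type I chain of the hair matrix and cuticle, stood at 8.49, 8.31 and 8.69 with progestin, against 7.68, 7.68 and 7.93 with vehicle (log2 change 0.73, SE 0.12, adjusted p = 0.00194). KRT32, a type I chain of the hair cuticle, stood at 5.12, 4.69 and 4.76 with progestin, against 4.23, 4.24 and 4.36 with vehicle (log2 change 0.58, SE 0.12, adjusted p = 0.00859). Both groups of arrays were separate for each gene. KRT32 was the 1 riser whose mean lay under 5.59, the 25th percentile of the means of all tested probe sets, as did those of 13 of the 48 keratins. KRT32 was not called with a variance trend and robust estimation (adjusted p = 0.053). The files used give no call of presence, so whether RNA of such a gene was in the cells was not tested. KRT31, a cortex keratin, came next with 7.95, 7.83 and 7.98 against 7.37, 7.14 and 7.58 with vehicle (log2 change 0.55, adjusted p = 0.0616). KRT36 followed (log2 change 0.41, adjusted p = 0.0731). KRT31 was called in 6 of 16 alternatives of the fit, KRT36 in 3 and KRT38, also uncalled as reported, in 4.

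Of the 9 keratins of the inner root sheath and companion layer 0 passed. The change with the smallest p was that of KRT75, the companion layer keratin, at 3.83, 3.16 and 3.11 with progestin, against 3.95, 3.94 and 4.02 with vehicle (log2 change -0.60, adjusted p = 0.0571). It was the 1 keratin of 48 whose progestin arrays all lay below its vehicle arrays, while 17 had all of them above. Of all 21214 probe sets, 4568 had every progestin array below every vehicle array and 4403 had every one above. The mean of KRT75 over all arrays was 3.88, under the percentile value of 5.59 given above with the hair keratins. KRT75 was called lower with quantile normalization and without progestin replicate 1 (adjusted p down to 0.0063). KRT72, of the inner root sheath, had a log2 change of 0.37, with overlap between the groups (adjusted p = 0.199), and was called with array weights and without vehicle replicate 3 (adjusted p down to 0.013). KRT222, an unclassified member, was at 0.05 (adjusted p = 0.904).

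Set side by side, KRT7, KRT8, KRT18 and KRT19 had a median log2 change of 0.32 with 2 of 4 called, and the 17 basal and hair keratins had a median of 0.36 with 4 of 17 called. All tested probe sets had a median of 0.02. The order of the 2 class medians turned with the scale: they were 0.39 for the simple and 0.27 for the basal and hair keratins with quantile normalization, and 0.32 and 0.27 with 16 added to the linear values. Neither class can therefore be placed above the other. The 28 type I chains had a median of 0.25 with 5 called, and the 20 type II chains a median of 0.12 with 4 called. The 3 changes past 2-fold were all of type II chains.

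**Figure D2:**
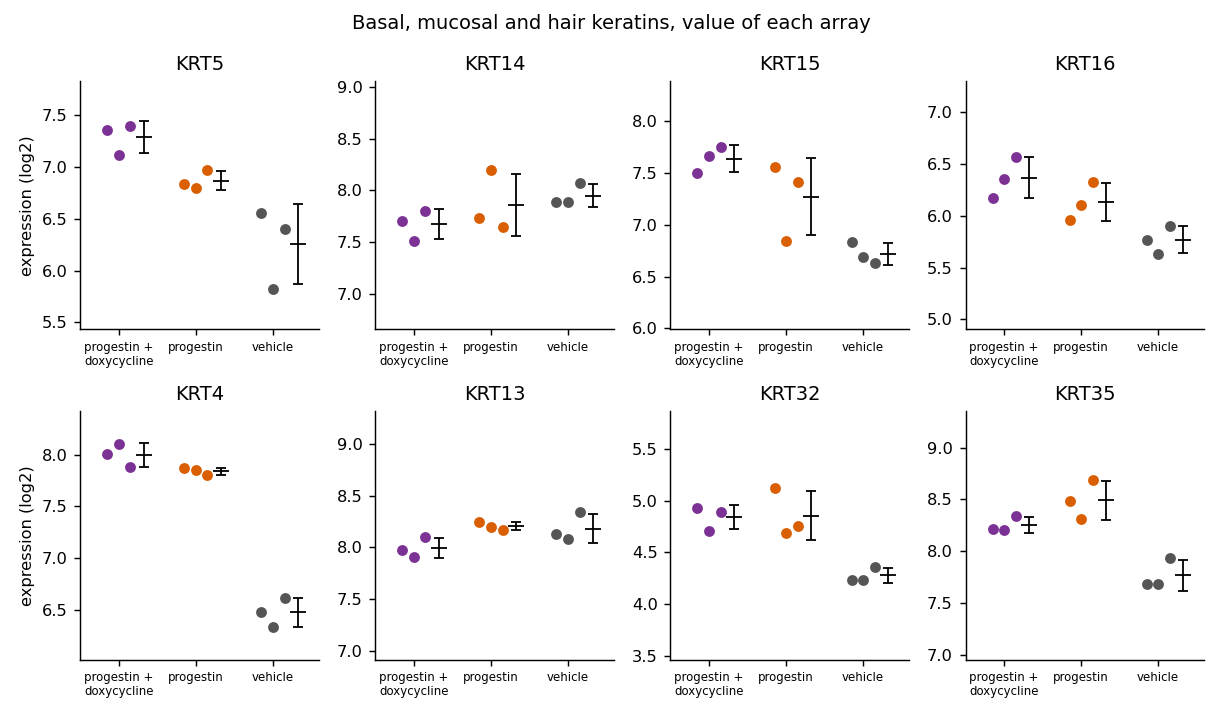
Expression of basal, activated, mucosal and hair keratins (log2, vertical axis, each panel with its own range) in the 3 arrays of each group, with the mean and SD as black bars. KRT4 is separated from vehicle by more than 1 log2 unit, whereas KRT14 and KRT13, the type I partners of KRT5 and KRT4, overlap between progestin and vehicle.

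The keratin genes lie in a cluster on chromosome 12, which holds the type II genes and KRT18, and a cluster on chromosome 17, which holds the other type I genes. Ordered by a RefSeq gene table, the measured risers included 4 of 21 genes on chromosome 12 and 5 of 27 on chromosome 17. KRT80 and KRT7, with the highest changes, are neighbours in the keratin order at the start of the chromosome 12 cluster. KRT8 and KRT18, which were not called, are neighbours at its other end. On chromosome 17, KRT32 and KRT35 adjoin each other, and so do KRT15 and KRT19, with KRT36 and KRT13 between these pairs.

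**Figure D3:**
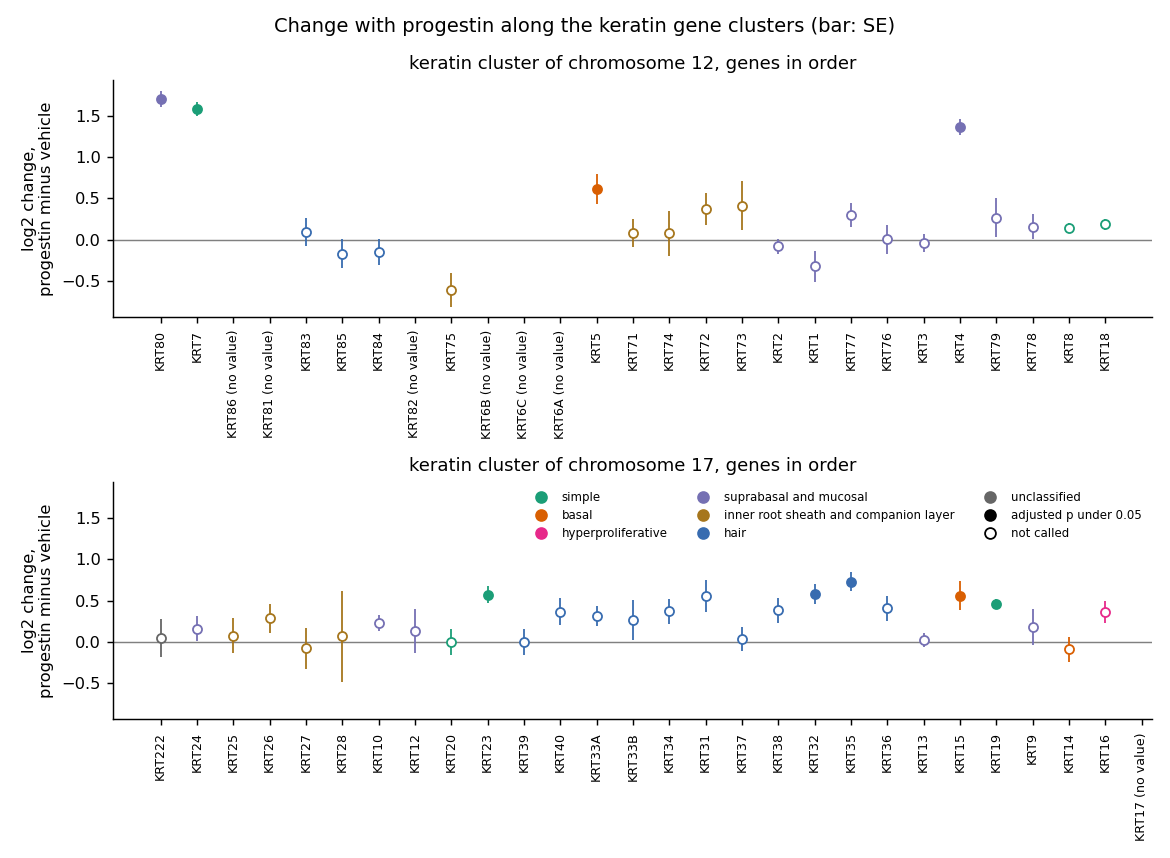
Log2 change of each keratin, progestin minus vehicle, with its SE as a bar, in the order of the genes along the clusters of chromosomes 12 and 17. Filled points had an adjusted p under 0.05, colours show the keratin class, and genes marked as having no value were not analysed here. KRT80 and KRT7 stand together at one end of the chromosome 12 cluster.

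The windows before the start sites of genes on both sides of the test show what sequence lies there. Among the risers, RefSeq promoter windows (GRCh38.p14) were at hand for KRT4, KRT5, KRT35 and KRT32. KRT8, which was not called, was picked from the other keratin windows. The 250 bases before each start site are given on the gene's strand, the minus strand for all 5. Capitals mark GGAAG or its reverse complement CTTCC, the core that ETS factors such as ELF5 bind, and the TATA box letters TATAAA.
KRT4, chr12:52814117-52814366: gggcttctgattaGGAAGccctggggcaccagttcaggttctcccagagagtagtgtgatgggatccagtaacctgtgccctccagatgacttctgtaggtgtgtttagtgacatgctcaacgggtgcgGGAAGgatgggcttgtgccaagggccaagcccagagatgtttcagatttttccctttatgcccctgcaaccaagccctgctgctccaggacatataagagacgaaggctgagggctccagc
KRT5, chr12:52520395-52520644: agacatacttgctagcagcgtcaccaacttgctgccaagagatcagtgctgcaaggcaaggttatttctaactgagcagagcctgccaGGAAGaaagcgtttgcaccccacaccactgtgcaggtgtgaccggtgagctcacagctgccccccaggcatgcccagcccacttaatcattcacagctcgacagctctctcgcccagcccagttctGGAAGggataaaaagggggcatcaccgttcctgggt
KRT35, chr17:41481152-41481401: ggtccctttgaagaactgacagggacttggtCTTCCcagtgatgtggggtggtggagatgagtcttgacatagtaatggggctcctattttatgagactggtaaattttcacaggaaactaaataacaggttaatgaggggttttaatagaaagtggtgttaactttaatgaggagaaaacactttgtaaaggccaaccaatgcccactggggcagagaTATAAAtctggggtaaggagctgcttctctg
KRT32, chr17:41467387-41467636: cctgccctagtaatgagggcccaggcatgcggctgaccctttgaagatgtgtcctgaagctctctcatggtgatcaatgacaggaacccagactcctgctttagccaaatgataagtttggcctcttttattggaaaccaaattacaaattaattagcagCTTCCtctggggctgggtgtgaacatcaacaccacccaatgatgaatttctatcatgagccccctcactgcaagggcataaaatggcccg
KRT8, chr12:52926470-52926719: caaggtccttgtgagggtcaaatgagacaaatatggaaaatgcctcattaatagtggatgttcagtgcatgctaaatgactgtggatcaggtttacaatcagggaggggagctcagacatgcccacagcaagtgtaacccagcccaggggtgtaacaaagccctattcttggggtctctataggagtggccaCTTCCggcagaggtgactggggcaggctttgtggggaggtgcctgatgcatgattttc

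Each of these windows held the ETS core at least once, KRT4 and KRT5 at 2 places, and KRT8 as well as the risers. Both strands were searched, and overlapping matches of different motifs would each count. The ETS core was found in 65.1% of all 35116 RefSeq windows of this length and in 11 of 33 keratin windows. Those 11 were the windows shown and those of KRT73, KRT20, KRT33A, KRT34, KRT31 and KRT37, which were not called. The other uncalled keratins with a window did not hold it, and this split was not tested. TATAAA was in 10.7% of all windows and in 19 of 33 keratin windows. Of the 5 windows shown it was in that of KRT35, 31 bases before the start. The hormone receptor half-site TGTTCT was in 12.4% of all windows and in 4 of 33 keratin windows, those of KRT74, KRT25, KRT28 and KRT9, and none of these 4 genes was called. The AP-1 letters TGANTCA were in 6.57% of all windows and in 0 of 33 keratin windows. A match is a description of these letters and not a binding site.

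Adding doxycycline to progestin, under which ELF5 was lower (log2 change -0.87, SE 0.08, adjusted p = 0.029), left all 48 keratins uncalled. The ELF5 call itself was lost in 10 of 16 alternatives, 8 of them omissions of 1 array (adjusted p up to 0.203), while its log2 change lay between -0.93 and -0.83 in all 16. In this comparison 0.0189% of all probe sets were called, that is 4 of 21214. This number ran from 0 to 530 over the alternatives and was at most 2 in 11 of 16, so a count of 0 among 48 keratins carries little information. At an unadjusted p under 0.05 there were 7 of 48 keratins, beside 14.0% of all probe sets, and the arrays of both groups were separate for 11 of 48 keratins, beside 21.2% of all probe sets. Of those 11, 5 were higher and 6 lower with doxycycline. The median log2 change of the keratins was -0.06, beside 0.03 for all probe sets.

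The 4 simple keratins had changes between -0.11 and 0.04. KRT7 stood at 10.70, 10.79 and 10.76 with progestin plus doxycycline, against 10.75, 10.72 and 10.78 with progestin (95% interval of the log2 change -0.19 to 0.19, adjusted p = 0.994). KRT8 had 13.09, 13.19 and 13.10 with progestin plus doxycycline, against 13.13, 13.14 and 13.06 with progestin (95% interval -0.13 to 0.17, adjusted p = 0.937). KRT19 had 12.91, 12.98 and 12.86, against 12.91, 12.85 and 12.87 with progestin (95% interval -0.10 to 0.18, adjusted p = 0.821). For KRT18 the values were 13.02, 13.13 and 13.02 with progestin plus doxycycline and 13.20, 13.18 and 13.12 with progestin (95% interval -0.26 to 0.04, adjusted p = 0.499). The second KRT18 probe set had a log2 change of -0.03 (adjusted p = 0.898), closer to 0 than the -0.11 of the one used. The arrays of the groups overlapped for all 4 genes.

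The arrays of KRT75, KRT5 and KRT23 lay apart between these groups, although none passed the threshold. KRT75 had 4.03, 4.32 and 4.56 with progestin plus doxycycline, against 3.83, 3.16 and 3.11 with progestin (log2 change 0.94, SE 0.20, adjusted p = 0.134). Its mean lay under the 25th percentile of all probe sets. KRT5 had 7.36, 7.12 and 7.40 with progestin plus doxycycline, against 6.84, 6.80 and 6.98 with progestin (log2 change 0.42, SE 0.18, adjusted p = 0.355). KRT23 had 8.61, 8.74 and 8.47 with progestin plus doxycycline, against 8.23, 8.29 and 8.19 with progestin (log2 change 0.37, SE 0.10, adjusted p = 0.188). For all 3 genes every array with doxycycline lay above every array without. On the other side, KRT72, a root sheath keratin, had a log2 change of -0.45 (adjusted p = 0.351) and KRT24, a keratin of suprabasal cells, of -0.39 (adjusted p = 0.302). KRT80 and KRT4, whose arrays were also separate, had log2 changes of 0.20 and 0.16 (adjusted p = 0.429 and 0.503).

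**Figure D4:**
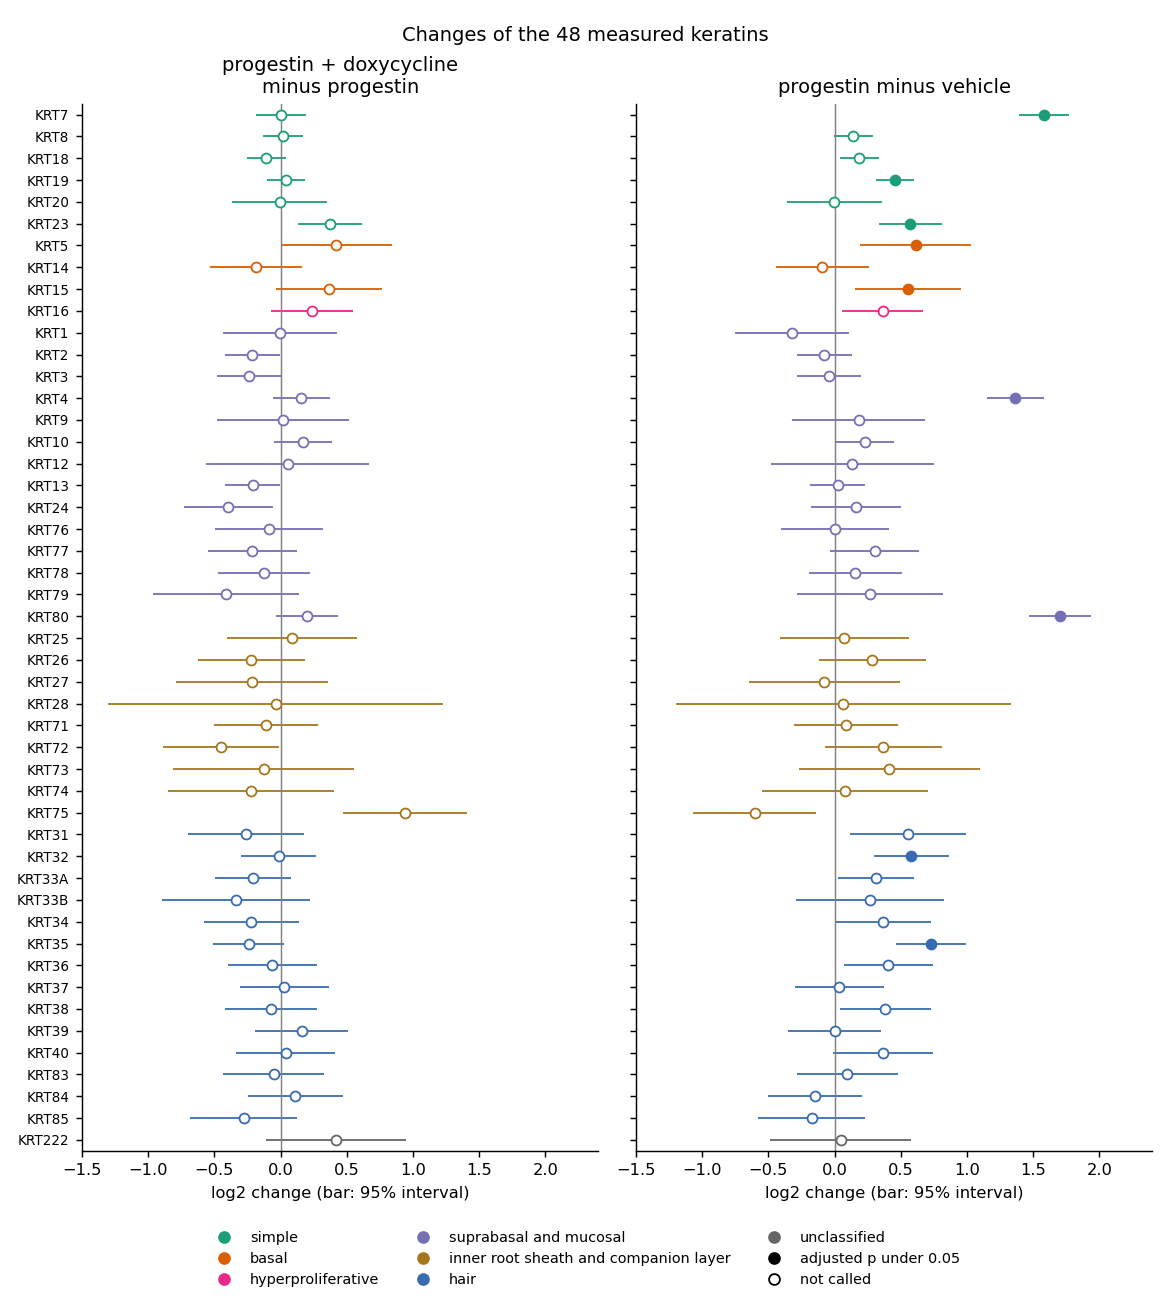
Log2 changes of all 48 keratins with 95% intervals, progestin plus doxycycline minus progestin on the left and progestin minus vehicle on the right, coloured by keratin class. Filled points had an adjusted p under 0.05: there are 9 on the right and 0 on the left, where most intervals include 0.

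Progestin plus doxycycline against vehicle, which shares arrays with both comparisons above, had 11 keratins higher and 1 lower among the 48. Of all probe sets 28.1% were called in this comparison, and 15.6% were called higher. KRT80 was 3.74-fold higher (log2 change 1.90, SE 0.10) and KRT4 2.87-fold (1.52, SE 0.09). KRT7 had a log2 change of 1.58 (SE 0.08), KRT5 of 1.03 (SE 0.18, adjusted p = 0.00322), KRT23 of 0.95 (SE 0.10) and KRT15 of 0.92 (SE 0.18, adjusted p = 0.00468). KRT19, KRT35 and KRT32 were higher by 0.50, 0.49 and 0.57. The KRT35 call was lost without vehicle replicate 1, vehicle replicate 2 or progestin plus doxycycline replicate 3 (adjusted p up to 0.0546), and the KRT32 call under robust estimation with a variance trend (adjusted p = 0.0617).

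The other calls here were KRT16, KRT10 and KRT2. KRT16 had 6.18, 6.36 and 6.57 with progestin plus doxycycline, against 5.77, 5.64 and 5.90 with vehicle (log2 change 0.60, SE 0.13, adjusted p = 0.0106). KRT10, the type I chain of the upper epidermis, had 9.74, 9.76 and 9.50, against 9.35, 9.24 and 9.21 with vehicle (log2 change 0.40, SE 0.10, adjusted p = 0.0137). KRT2, the type II chain of the outermost living epidermis, was the 1 keratin called lower, with 7.53, 7.31 and 7.48 against 7.65, 7.69 and 7.85 with vehicle (log2 change -0.29, SE 0.09, adjusted p = 0.0469). The KRT2 call was lost in 12 of 16 alternatives, among them every omission of 1 array, with adjusted p up to 0.145. The KRT10 call was lost without progestin plus doxycycline replicate 1 or 2 (adjusted p up to 0.0533). KRT8 and KRT18 had log2 changes of 0.16 and 0.08 (adjusted p = 0.11 and 0.446), and KRT14 of -0.28 (adjusted p = 0.24). The second KRT18 probe set had a larger change than the one used, at 0.16 (adjusted p = 0.111).

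Partner genes were taken broadly, as other intermediate filaments, plakins and linkers, and enzymes and transcription factors of keratin biology. Among the 44 measured, 9 rose and 4 fell with progestin, beside the 29.0% of all probe sets called. Of 15 other intermediate filament genes 0 rose and 2 fell. These were the nuclear lamins LMNB1, at 8.53 ± 0.072 with progestin, against 10.27 ± 0.031 with vehicle (log2 change -1.74, SE 0.07, adjusted p = 1.08e-06), and LMNB2 (-0.94, SE 0.08, adjusted p = 6.34e-05). Vimentin, VIM, the filament of mesenchymal cells, was at 5.48 ± 0.16 with progestin, against 5.72 ± 0.06 with vehicle (log2 change -0.24, adjusted p = 0.0818). Of 10 plakins and linkers, which tie filaments to junctions, periplakin PPL rose by 1.05 (SE 0.11, adjusted p = 0.000166) and desmoplakin DSP by 0.58 (SE 0.08, adjusted p = 0.00107). Dystonin DST, which anchors KRT5 and KRT14 filaments at the basement membrane, fell by 0.52 on the log2 scale (adjusted p = 0.00254).

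Of 19 enzymes and transcription factors 7 rose and 1 fell. KLF4, a factor of epithelial differentiation, had 9.32 ± 0.094 with progestin, against 6.68 ± 0.16 with vehicle (log2 change 2.64, SE 0.10, adjusted p = 8.24e-07). SOX9, a factor of progenitor cells and hair follicles, changed by 1.41 (SE 0.11), and PADI3, which deiminates proteins of the hair follicle, by 1.24 (SE 0.10). MSX2, a homeobox factor of skin appendages, changed by 0.70 (SE 0.09, adjusted p = 0.000663). With doxycycline added to progestin 0 of the 44 partners were called. DSP came closest, at 11.92 ± 0.088 with progestin plus doxycycline, against 11.17 ± 0.095 with progestin (log2 change 0.75, adjusted p = 0.0549). DST, which fell with progestin, had a log2 change of 0.50 (adjusted p = 0.12). The plakins and linkers had a median log2 change of 0.32, beside 0.03 for all probe sets. The medians were -0.02 for the other intermediate filaments and 0.02 for the enzymes and transcription factors.

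Markers of the cell types that the keratins stand for were read in the same model. The counts below stand beside 29.0% of all probe sets called with progestin and 13.4% called higher. Of 9 luminal markers, whose mean per array was 9.88 to 9.95 with progestin and 10.11 to 10.28 with vehicle, 2 rose and 4 fell with progestin. The trefoil factors TFF3 and TFF1, secreted products of luminal cells, had the widest gaps (log2 changes -1.86 and -0.84), ESR1 and GATA3 had -0.50 and -0.51, and MUC1 and SPDEF had 0.71 and 0.60. Of 9 basal and myoepithelial markers other than keratins, 2 rose and 1 fell, with means of 6.24 to 6.41 with progestin and 6.21 to 6.30 with vehicle. Of 9 markers of squamous differentiation 4 rose and 0 fell, with means of 6.27 to 6.43 with progestin and 5.13 to 5.77 with vehicle. Corneodesmosin, CDSN, which holds cornified cells together, had 7.57, 7.37 and 7.85 with progestin, against 2.59, 2.20 and -3.58 with vehicle, and entered that mean with by far the widest gap. Involucrin, IVL, a protein of the cornified envelope, had a log2 change of 0.69 (adjusted p = 0.0052), and transglutaminase TGM1, which crosslinks that envelope, of 0.50 (adjusted p = 0.0152). The remaining riser CNFN had 0.24 (adjusted p = 0.045). Filaggrin, FLG, was not called (log2 change -0.18, adjusted p = 0.536). SPRR1A, SPRR1B, SPRR3 and SBSN were not called either (log2 changes -0.28, -0.03, -0.56 and 0.28). The median log2 change of the 9 squamous markers was 0.24. Their means without CDSN were not taken, so the gap between the class means cannot be read as a shift of the other markers. Of 11 stromal, endothelial and immune markers 2 rose and 1 fell, with means of 4.68 to 6.02 with progestin and 5.74 to 6.04 with vehicle. The lowest of these means came from progestin replicate 3, in which LUM was at -10.32. The part of these shifts in the keratin changes was not tested.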

How the data were processed

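Expression was measured on Affymetrix HuGene 1.0 ST arrays in 3 groups of 3 arrays, grouped by their titles. The values are log2 expression per probe set, deposited by the authors. Per the submitters' processing notes, limma, PLIER, Expression Console and Power Tools (both from Affymetrix) were used, without their roles. Background correction and normalization are not given in the sources used here, and the log2 scale was read from the values. Medians per array lay between 7.19 and 7.28. Where nothing in the labels marks separate cultures, p-values measure the spread between arrays.

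Of 33297 probe sets, the 21214 with at least 1 symbol in the platform annotation were tested with limma 3.58.1 in R 4.3.3: a mean per group over all 9 arrays, eBayes and Benjamini-Hochberg adjustment at 0.05. All adjusted p-values come from such fits, and fold changes are 2 to the power of the log2 change. An exact permutation test of 3 arrays in each group has 0.1 as its smallest p. The number of arrays limits the precision: the median SE of a change was 0.12. In simulated data with 200 of 21214 probe sets changed by 1 log2 unit, the fit recovered 89.5% of them and made 15 false calls. That simulation used independent normal noise and a far smaller share of changed probe sets than was called in these data.

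The 48 keratins matched RefSeq (GRCh38.p14) by gene identifier. KRT6A, KRT6B, KRT6C, KRT17, KRT81, KRT82 and KRT86 were not analysed here. Members, classes, partner and marker lists were chosen with earlier results of these data known, from general knowledge. The naming rule gives in full the luminal and basal keratins and every keratin called with progestin or with doxycycline added, 2 examples of each other class by smallest p, and up to 8 called partners per comparison. KRT13, the pairs KRT1 with KRT10 and KRT3 with KRT12, KRT20, KRT24, KRT2, KRT38, KRT222, VIM, DST, CDSN, LUM, TFF3, TFF1, ESR1, GATA3, MUC1, SPDEF, IVL, TGM1, FLG, CNFN, SPRR1A, SPRR1B, SPRR3 and SBSN were added after their values were seen. Alternatives were a scale with 16 added to the linear values, quantile normalization, leaving out the dimmest 25% of probe sets, a variance trend with robust estimation, array weights, a replicate block, the 2 groups alone, any probe set of a gene, and each array left out.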

Additional observations from a re-analysis of the deposited data

Results flagged for a closer look

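Among 9 probe sets annotated to keratin pseudogenes, to a keratin antisense RNA or to a keratin beside another symbol, which the comparisons above do not use, 2 were higher with progestin than with vehicle. Of all probe sets 13.4% were called higher in this comparison. The probe set annotated to both MIR492 and the pseudogene KRT19P2 stood at 10.40, 10.46 and 10.28 in progestin arrays, against 9.63, 9.61 and 9.58 in vehicle arrays (log2 change 0.77, SE 0.07, adjusted p = 9.09e-05). KRT19 itself was among the risers (log2 change 0.46), and RNA of KRT19 could not be separated from that of its copy here. The probe set of the antisense RNA KRT10-AS1 stood at 7.71, 7.41 and 7.67 in progestin arrays, against 7.21, 7.38 and 6.96 in vehicle arrays (log2 change 0.41, SE 0.13, adjusted p = 0.0492). The groups did not overlap for either probe set. For 4403 of all 21214 probe sets every progestin array lay above every vehicle array.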

How the results depend on the processing

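The count of keratins called with progestin was 9 as reported, 14 under robust estimation with a variance trend and 16 with array weights. Leaving out any 1 array gave 7 to 10. KRT75 was called lower with quantile normalization and without progestin replicate 1, against 0 lower as reported, and KRT73 higher with array weights. KRT7, KRT19, KRT23, KRT80, KRT4 and KRT35 were called under all 16 alternatives of the fit, KRT32 under 14 of 15, KRT5 under 9 and KRT15 under 5 of 16. KRT5 was lost with array weights (log2 change 0.38, adjusted p = 0.104) and with the 2 groups alone (adjusted p = 0.0721), and KRT15 with quantile normalization (0.0552), the replicate block (0.0652) and the 2 groups alone (0.0889). Whether the replicate numbers pair the arrays was not settled. Correlations of same-numbered deviations ran from -0.279 to 0.0703 for progestin against vehicle and for doxycycline added to progestin. For progestin plus doxycycline against vehicle they were -0.147, 0.42 and 0.37 for replicates 1, 2 and 3. With the replicate block the count with progestin was 9 keratins, KRT16 called and KRT15 not. The median change of KRT7, KRT8, KRT18 and KRT19 was 0.32, and 0.39 with quantile normalization. That of the basal and hair keratins was 0.36, 0.27 with quantile normalization, and 0.25 (without vehicle replicate 2) to 0.45 when single arrays were omitted. With doxycycline added 0 keratins were called in the alternatives run, of which 11 of 16 called at most 2 of all probe sets, so that this count says nothing about stability there; 158 probe sets were called without the dimmest 25% and 530 under robust estimation with a variance trend. For progestin plus doxycycline against vehicle the count of 12 keratins lay between 10 and 16, and KRT2 was called in 4 of 16 alternatives, KRT35 in 13 and KRT10 in 14. With doxycycline added to progestin, the sign of uncalled changes near 0 turned for KRT7, KRT8, KRT19 and KRT32. KRT7 was at -0.062 with quantile normalization, -0.013 with array weights and -0.018 to 0.027 with 1 array left out. KRT8 was at -0.0091 with array weights and -0.015 to 0.035 with 1 array left out. KRT19 was at -0.040 with quantile normalization. KRT32 was at 0.0033 with quantile normalization and -0.10 to 0.12 with 1 array left out. KRT14 with progestin lay between -0.26 and 0.016 with 1 array left out. Partner genes called with progestin numbered 13, and 20 with array weights. With doxycycline added their number was 1 with 16 added to the linear values or with array weights, 2 without the dimmest 25% of probe sets and 5 under robust estimation with a variance trend, against 0 as reported. The cause of these differences was not tested.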
